A study of Mus musculus with 60 samples.

Results

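Nascent RNA of 9 Sox genes was compared between mouse embryonic stem cells with and without knockdown of Esrrb. The genes were Sox1, Sox2, Sox3, Sox4, Sox11, Sox12, Sox13, Sox15 and Sox21, out of 24260 gene symbols in the deposited files. They were listed by symbol with results of this same comparison known, so their siEsrrb and siCtrl values are given as a description and support no test. Each symbol had a single RefSeq transcript in the files.

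Sox proteins bind DNA through an HMG box, the domain they share with Sry, and bend it. Sox2 belongs to the SoxB1 subgroup and acts in embryonic stem cells together with the POU factor Oct4 (gene Pou5f1) on composite DNA elements, while Sox1 and Sox3, its closest relatives, are known from the early nervous system. Sox21 belongs to the SoxB2 subgroup, which binds like SoxB1 but mostly represses. The SoxC genes Sox4, Sox11 and Sox12 are known from neuronal and other progenitors, Sox13 is a SoxD gene and Sox15 is the SoxG gene.

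All 4 libraries came from E14 cells, an established mouse embryonic stem cell line grown on gelatin with serum and LIF. The siEsrrb group (2 libraries) received an siRNA against Esrrb, an orphan nuclear receptor of the naive pluripotency network, and the siCtrl group (2 libraries) a control siRNA. Cells were taken 72 h after transfection, and RNA was isolated from the chromatin pellet, where transcripts still being made are enriched. The other 56 of the 60 samples, which used other assays, were not analysed here.

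The deposited unit was RPKM, reads scaled by gene length and by library depth. Library totals behind these values were 22363943 and 61857158 reads for siEsrrb replicates 1 and 2, and 24764879 and 68002338 reads for siCtrl replicates 1 and 2. Esrrb itself (NM_001159500) had 0.859 and 1.37 RPKM in the siEsrrb libraries, against 2.01 and 2.09 RPKM in the siCtrl libraries. After scaling the libraries to a common median, Esrrb stood at 44.3% of siCtrl in replicate 1 and 67.0% in replicate 2. The targeted gene was thus lower in both siEsrrb libraries. All percentages of siCtrl and folds between same-numbered libraries given below are likewise ratios of scaled RPKM. The labels do not say that libraries of a group came from separate cultures, so that a p-value here covers the spread among 4 libraries, which may be technical. In cells sequenced in bulk, fewer cells of a type and less RNA per cell cannot be told apart.

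Promoter stretches of Sox4, Sox11 and Sox12 (higher in both siEsrrb libraries), Sox2 (overlapping) and Sox21 (lower in both) are shown first, as a description. Sox1 and Sox3 were also higher and are not shown, and only Sox21 was lower. The stretches therefore allow no comparison of higher with lower genes. Each line gives 120 bases ending at the base before the annotated start (for Sox12, bases 220 to 161 before it), 5′ to 3′ on the gene's strand, from RefSeq's promoter table with build GRCm38.p6. Capitals mark the CCAAT box in either direction (CCAAT or ATTGG) and, in Sox12, the octamer ATGCAAAT, the sequence that POU factors bind.
Sox4, chr13:28953700-28953819, minus strand: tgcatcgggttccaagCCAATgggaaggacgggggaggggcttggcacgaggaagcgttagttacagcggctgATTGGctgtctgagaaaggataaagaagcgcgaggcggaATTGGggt
Sox11, chr12:27342719-27342838, minus strand: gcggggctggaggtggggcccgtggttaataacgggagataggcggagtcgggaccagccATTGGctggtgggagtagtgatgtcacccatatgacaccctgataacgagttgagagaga
Sox12, chr2:152398207-152398266, minus strand: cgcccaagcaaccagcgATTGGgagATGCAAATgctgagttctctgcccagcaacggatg
Sox2, chr3:34649875-34649994, plus strand: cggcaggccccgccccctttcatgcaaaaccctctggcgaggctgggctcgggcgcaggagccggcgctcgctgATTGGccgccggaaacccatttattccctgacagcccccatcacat
Sox21, chr14:118237031-118237150, minus strand: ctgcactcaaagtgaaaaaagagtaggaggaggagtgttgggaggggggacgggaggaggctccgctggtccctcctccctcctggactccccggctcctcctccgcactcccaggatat

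In the 120 bases before the start, Sox2 and Sox11 hold 1 CCAAT box each and Sox4 holds 3, while Sox12 and Sox21 hold none. The Sox12 stretch was taken further up because its box and octamer lie there. In the full windows, 250 bases before to 50 after the start, 8 of the 9 genes were matched. The letters CCAAT, on either strand, were found in 5 of these 8 promoters (Sox1, Sox2, Sox4, Sox11, Sox12), against 37.4% of all 32851 promoters in the table and 39.3% of those of tested genes. The octamer ATGCAAAT was found in 2 (Sox12 and Sox1), against 1.74% of all promoters and 1.32% of those of tested genes. The letters AAGGTCA, the core sequence that Esrrb binds, were found in 0 of the 8 windows, against 4.72% of all promoters and 3.01% of those of tested genes. ACAATGG, a Sox site, was found in 0 of 8, against 3.66% of all and 1.92% of those of tested genes. TATAAA was found in 0 of 8, against 13.6% of all and 6.81% of those of tested genes. The window of Sox21 had 65.7% G or C with 22 CpG, that of Sox2 66.3% with 27 and that of Sox4 52% with 12, against a median of 61.3% and 22 for the tested genes. A match is only a run of letters, and its absence says only that these letters are not in this window.

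Sox2 was the highest of the 9 genes in every library. It had 20.8 and 21.5 RPKM in the siEsrrb libraries, against 23.3 and 22.8 RPKM in the siCtrl libraries (transcript NM_011443, 2466 bases, chromosome 3). These values come from 1147 and 3282 reads in siEsrrb and 1423 and 3820 reads in siCtrl. Both siEsrrb values lay under both siCtrl values as deposited. After scaling the libraries to a common median the siEsrrb and siCtrl libraries overlapped, at 21.5 ± 1.58 scaled RPKM in siEsrrb and 22.7 ± 2.38 in siCtrl (SD, n = 2 each). The log2 fold change of siEsrrb against siCtrl, on the log2(scaled RPKM + 0.5) scale, was −0.08 (SE 0.15). In replicate 1 the scaled siEsrrb level was 92.6% of siCtrl (95% exact counting interval 85.6 to 100.2%), and in replicate 2 it was 96.8% (92.4 to 101%). Such intervals cover counting error only and take the scaling as fixed, so whether they reach 100% also depends on the scaling.

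Sox21 was the member with the lowest siEsrrb level relative to siCtrl. It had 0.483 and 0.685 RPKM in the siEsrrb libraries, against 2.40 and 2.16 RPKM in the siCtrl libraries (NM_177753, 3797 bases, chromosome 14). The reads were 41 and 161 in siEsrrb, and 226 and 559 in siCtrl. Both siEsrrb libraries were below both siCtrl libraries, with no overlap. The siEsrrb level was 20.8% of siCtrl in replicate 1 (14.6 to 29.2%) and 32.5% in replicate 2 (27.1 to 38.8%). The scaled means were 0.588 ± 0.0881 RPKM in siEsrrb and 2.26 ± 0.367 RPKM in siCtrl (SD, n = 2 each), a log2 fold change of −1.34 (SE 0.12).

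The ratio of Sox21 to Sox2 shows the same pair within each library, where scaling plays no part. Sox21 RPKM were 2.32% and 3.19% of Sox2 RPKM in the siEsrrb libraries, against 10.3% and 9.50% in the siCtrl libraries. Of the summed scaled RPKM of the 9 genes, Sox21 made up 1.31% and 1.88% in the siEsrrb libraries and 6.78% and 6.26% in the siCtrl libraries. Sox2 made up 56.6% and 59.1% in the siEsrrb libraries, against 65.8% and 65.9% in the siCtrl libraries, although its own level overlapped between the groups.

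The other SoxB1 genes were low. Sox1 (NM_009233, 4037 bases, chromosome 8), a marker of early neural progenitors, had 0.709 and 0.965 RPKM in the siEsrrb libraries, against 0.570 and 0.510 RPKM in the siCtrl libraries. The Sox1 reads were 64 and 241 in siEsrrb, and 57 and 140 in siCtrl. It was higher in both siEsrrb libraries, at 129% of siCtrl in replicate 1 (88.9 to 188%) and 194% in replicate 2 (157 to 241%), with a log2 fold change of 0.38 (SE 0.11). That value depends on the pseudocount, at 0.57 with 0.1 RPKM and 0.26 with 1 RPKM, and was 0.78 with voom. Sox3 (NM_009237, 2065 bases, chromosome X) had 0.433 and 0.251 RPKM in the siEsrrb libraries, against 0.0782 and 0.0926 RPKM in the siCtrl libraries. These Sox3 values rest on 20 and 32 reads in siEsrrb, and 4 and 13 reads in siCtrl. Both siEsrrb libraries were above both siCtrl libraries, by 5.74-fold (1.92 to 23.1) in replicate 1 and 2.77-fold (1.42 to 5.76) in replicate 2. Sox3 stayed under the minimum mean of 0.5 RPKM, so its log2 fold change of 0.54 (SE 0.15) is from a fit without that minimum. It was 1.26 with a pseudocount of 0.1 RPKM, 0.32 with 1 RPKM and 1.75 with voom, and 0.34 without siEsrrb replicate 1. Of the genes under the minimum with a read in any library, 20.0% were higher in both siEsrrb libraries.

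The 3 SoxC genes were each higher in both siEsrrb libraries. Sox4 (NM_009238, chromosome 13) had 4.74 and 4.74 RPKM in the siEsrrb libraries, against 2.76 and 3.11 RPKM in the siCtrl libraries. The siEsrrb level was 178% of siCtrl in replicate 1 (149 to 214%) and 156% in replicate 2 (141 to 173%), and the log2 fold change was 0.65 (SE 0.10). The groups did not overlap, and the siEsrrb mean was 4.83 ± 0.468 scaled RPKM against 2.89 ± 0.0131 in siCtrl (SD, n = 2 each). The gene length behind the Sox4 reads (313 and 866 in siEsrrb, 202 and 625 in siCtrl) is the shortest that gives whole reads, so the read numbers could be larger by a whole factor.

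Sox11 (NM_009234, 8451 bases, chromosome 12), which acts with Sox4 in newborn neurons, had 3.34 and 2.53 RPKM in the siEsrrb libraries, against 1.71 and 1.29 RPKM in the siCtrl libraries. Its siEsrrb level was 203% of siCtrl in replicate 1 (178 to 232%) and 201% in replicate 2 (183 to 220%), a log2 fold change of 0.81 (SE 0.24). The ratio was close in the 2 replicates, while the replicate 1 level lay above the replicate 2 level in each group. Sox12 (NM_011438, 4435 bases, chromosome 2) had 4.44 and 3.65 RPKM in the siEsrrb libraries, against 2.90 and 2.77 RPKM in the siCtrl libraries. It stood at 158% of siCtrl in replicate 1 (137 to 184%) and 135% in replicate 2 (123 to 148%), with a log2 fold change of 0.48 (SE 0.18), which was 0.26 without siEsrrb replicate 1. Summed over the 3 genes, SoxC scaled RPKM were 13.6 and 10.4 in the siEsrrb libraries, against 7.73 and 6.64 in the siCtrl libraries.

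**Figure D1:**
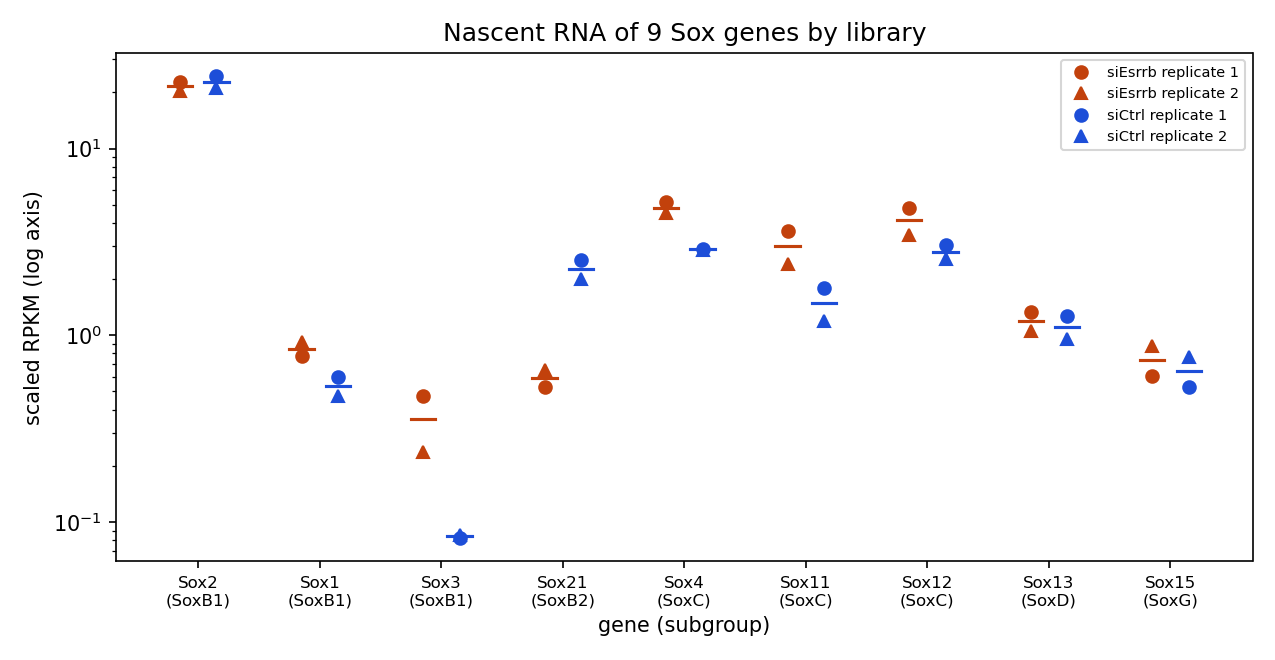
Scaled RPKM (log axis) of the 9 Sox genes in each library, with siEsrrb left of siCtrl. Circles are replicate 1, triangles replicate 2 and bars the means. Sox21 lies lower in both siEsrrb libraries, Sox1, Sox3, Sox4, Sox11 and Sox12 lie higher, and Sox2, Sox13 and Sox15 overlap.

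Sox13 and Sox15 overlapped between the groups. Sox13 (NM_011439, 41913 bases, chromosome 1) had 1.23 and 1.12 RPKM in the siEsrrb libraries, against 1.21 and 1.03 RPKM in the siCtrl libraries, a log2 fold change of 0.08 (SE 0.14). Sox15 (NM_009235, 1691 bases, chromosome 11), which can stand in for Sox2 in mouse embryonic stem cells, had 0.555 and 0.927 RPKM in the siEsrrb libraries, against 0.501 and 0.826 RPKM in the siCtrl libraries. Its log2 fold change was 0.12 (SE 0.17). For Sox15 the replicates differed more than the groups: on the scaled values, replicate 2 over replicate 1 was 1.46 in siEsrrb and 1.45 in siCtrl, from 21 and 97 reads in siEsrrb and 21 and 95 in siCtrl.

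**Figure D2:**
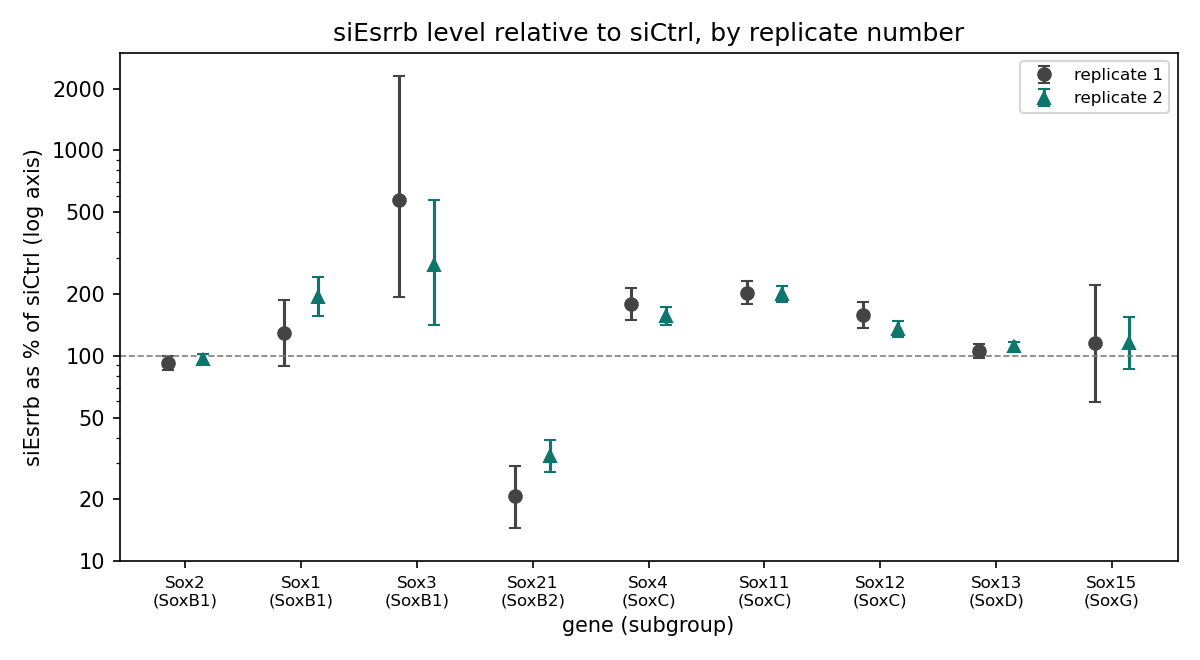
Scaled siEsrrb level as a percentage of siCtrl (log axis) for each Sox gene and replicate, with 95% counting intervals. Sox21 lies at 20.8% and 32.5%, and Sox11 at 203% and 201%.

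In limma's fit across all 9653 genes with a mean of at least 0.5 RPKM, 0 genes passed the adjusted p threshold of 0.05 (0.0%), 0 of the 8 Sox genes in that fit among them. The unadjusted p was under 0.05 for 1088 genes (11.3%; 5.86% higher and 5.41% lower in siEsrrb), and for 4 of the 8 Sox genes (Sox1, Sox4 and Sox11 higher, Sox21 lower). On reads recovered from the RPKM, limma's voom called 0 genes after adjustment and 1177 before it. Voom with the replicate number as a block called 2568 genes (26.6%), 5 of the Sox genes among them, but the labels do not state that the numbers pair libraries. Of the 9 Sox genes, 5 were higher in both siEsrrb libraries, 1 was lower in both and 3 overlapped. Among all genes tested, the groups did not overlap for 43.7%: 21.6% were higher in both siEsrrb libraries and 22.0% were lower in both. The list was chosen on this contrast, so nothing is read from that difference. The median log2 fold change of the 8 members in the fit was 0.25, against −0.0012 for all genes. Sox21 was the 20th lowest of 9653, and Sox11 the 141st highest, by log2 fold change. The median and these ranks come from the contrast on which the list was chosen, so nothing is read from them either. An exact permutation test of 2 against 2 libraries could not go below p = 0.333.

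**Figure D3:**
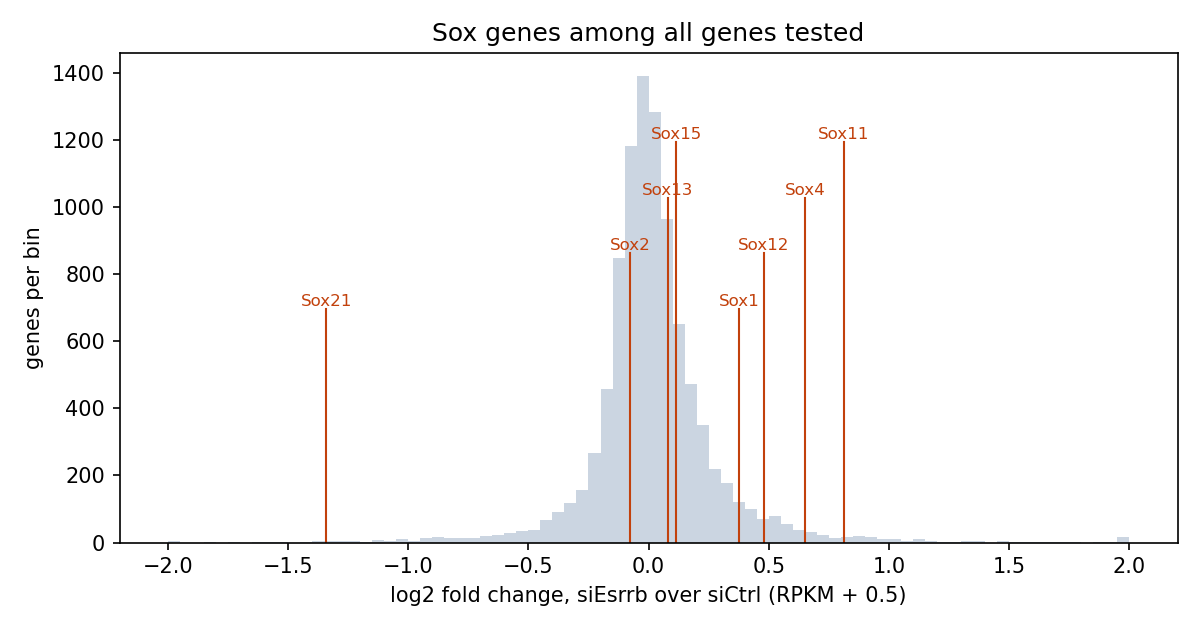
Histogram of the log2 fold change of siEsrrb against siCtrl (x axis) over 9653 genes (number of genes, y axis), with values past 2 in either direction drawn at the edge. Lines mark the 8 Sox genes in the fit, from Sox21 at −1.34 to Sox11 at 0.81.

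By level per length, the order in the siEsrrb libraries was Sox2, Sox4, Sox12, Sox11, Sox13, Sox1, Sox15, Sox21 and Sox3. Among neighbours in that order, Sox12 overlapped with Sox4 and with Sox11, and Sox15 overlapped with Sox1 and with Sox21, while Sox4 lay above Sox11 and Sox1 above Sox21 in both siEsrrb libraries. In the siCtrl libraries it was Sox2, then Sox4 and Sox12, which overlapped, then Sox21, then Sox11 and Sox13, which overlapped, then Sox15 and Sox1, which overlapped, and Sox3 last. Sox21 thus stood at rank 8 in siEsrrb and rank 4 in siCtrl. The length behind Sox13 was 41913 bases, introns included, while the lengths recovered for the other 8 genes were under 10000 bases. Sox13 had 1154 and 2894 reads in siEsrrb, against 1147 and 3282 for Sox2, so its place in the order depends on that length.

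Among the other 11 Sox genes, 0 reached a mean of 0.5 RPKM, and the highest single value was 0.0991 RPKM (Sox18, siEsrrb replicate 1). Sox14, Sox6, Sox9 and Sox18 were higher in both siEsrrb libraries. Sox14 had 2 and 2 reads in siEsrrb against 0 and 0 in siCtrl, and Sox9 had 4 and 13 against 2 and 5. Sox18 had 4 and 4 reads in siEsrrb against 1 and 2 in siCtrl, and Sox6 had 265 and 685 against 225 and 668. Sox7 was lower in both siEsrrb libraries, with 4 and 7 reads against 8 and 22 in siCtrl, and 6 genes overlapped. Of all 21334 genes with a read in any library, 20.7% were higher in both siEsrrb libraries and 18.5% were lower in both. Sry was listed at 0 in every library.

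Genes that lie over the Sox genes or beside them were examined for what their reads share with them. Sox2 lies within Sox2ot, a long noncoding RNA gene of 117613 bases. Sox2ot had 1583 and 4662 reads in the siEsrrb libraries and 2114 and 5529 in the siCtrl libraries. The Sox2 reads equal 72.5% and 70.4% of these in siEsrrb, and 67.3% and 69.1% in siCtrl. Reads of Sox2 and Sox2ot cannot be told apart in these values, and whether counting used strand is not given in the sources used here. The remainder of Sox2ot had 0.169 and 0.194 RPKM in siEsrrb, against 0.242 and 0.218 RPKM in siCtrl. Sox1 lies likewise within Sox1ot, of which Sox1 reads equal 86.5% and 79.5% in siEsrrb, and 93.4% and 71.4% in siCtrl. Gm4675 overlaps Sox21 by 799 bases and had 6 and 28 reads in siEsrrb, against 12 and 41 in siCtrl. Mpdu1 overlaps Sox15 by 31 bases.

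The nearest tested genes on either side of the Sox genes are given next, in the order of the annotation. They were taken at any distance, which is not given here, so a gene named beside a Sox gene need not adjoin it. Beside Sox21, Tgds had a log2 fold change of −0.12 (SE 0.13) and Abcc4 of −0.02 (SE 0.07), against −1.34 for Sox21. Beside Sox2, the noncoding RNA gene Gm38509 had 0.209 and 0.587 RPKM in the siEsrrb libraries, against 1.17 and 1.30 RPKM in the siCtrl libraries, and was lower in both siEsrrb libraries. Gm38509 passed the minimum mean of 0.5 RPKM only through the siCtrl libraries, so its place among the tested genes already favours a lower value. The Gm38509 level in siEsrrb was 18.5% of siCtrl in replicate 1 and 46.2% in replicate 2, a log2 fold change of −0.97 (SE 0.20). That value was −1.51 with a pseudocount of 0.1 RPKM, −0.68 with 1 RPKM and −0.70 without siEsrrb replicate 1. The neighbour on the other side, Fxr1, had −0.15 (SE 0.11). Beside Sox12, Zcchc3 was higher in both siEsrrb libraries, with a log2 fold change of 0.55 (SE 0.23), which was 0.27 without siEsrrb replicate 1 and 0.82 without siEsrrb replicate 2. The 12 protein-coding neighbours other than Zcchc3, Fxr1 and those of Sox21 included, lay between −0.15 and 0.20. The 3 microRNA neighbours, Mir6538 beside Sox11, Mir505 beside Sox3 and Mir1934 beside Sox15, had between 1 and 28 reads per library, and no fold is given for them. Differences between a Sox gene and its neighbours were not tested.

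**Figure D4:**
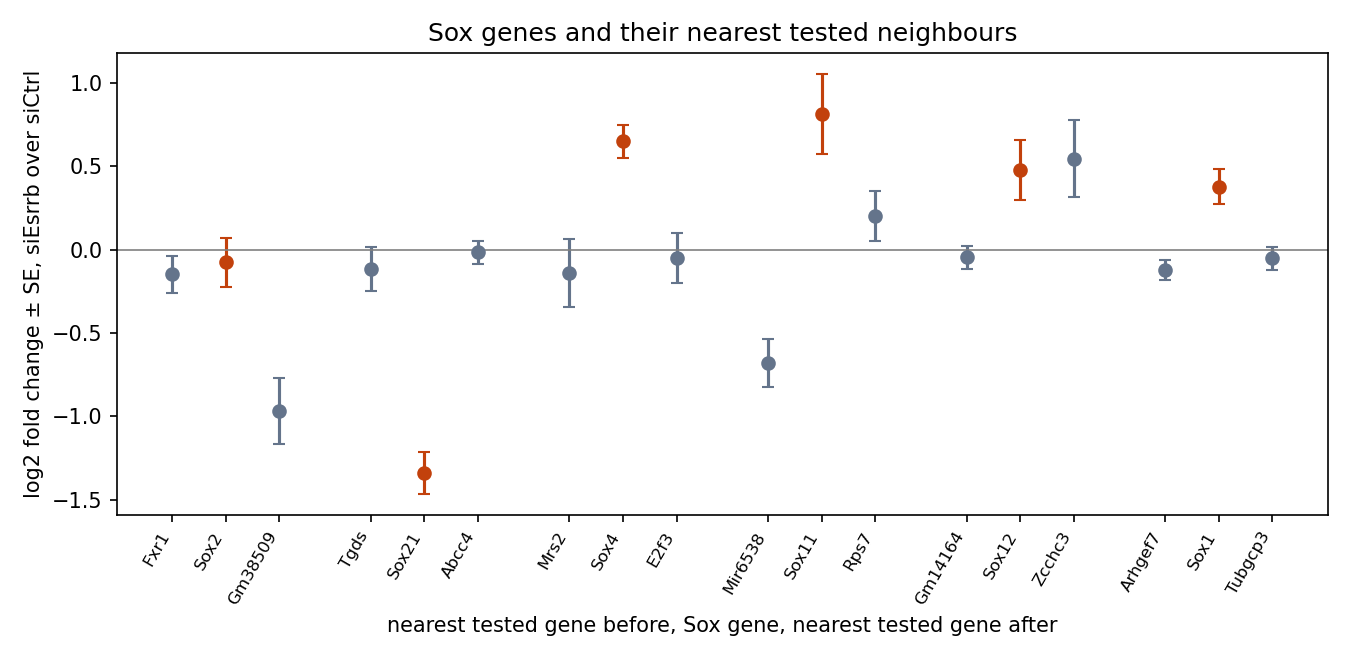
Log2 fold change of siEsrrb against siCtrl (y axis, bars SE) for Sox2, Sox21, Sox4, Sox11, Sox12 and Sox1, each between its nearest tested genes. Sox21 at −1.34 lies below Tgds at −0.12 and Abcc4 at −0.02, while Sox12 at 0.48 lies beside Zcchc3 at 0.55. Mir6538 rests on 1 to 8 reads per library.

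Partner and target genes of Sox proteins were counted from lists, with medians set beside −0.0012 for all genes and counts beside 21.6% of all genes higher and 22.0% lower in both siEsrrb libraries. Of 14 POU factor genes, 4 were tested, 2 were higher in both siEsrrb libraries and 2 overlapped, with a median log2 fold change of 0.15. Pou5f1 had 0.39 (SE 0.16), and Pou3f1, which pairs with Sox2 in neural and primed cells, had 0.87 (SE 0.30). Without siEsrrb replicate 1 these were 0.21 and 0.48. Of 10 genes with known Oct4-Sox2 elements, 9 were tested, 2 were higher, 4 were lower and 3 overlapped, with a median of 0.01. Fgf4, a signal of naive cells with such an element, was lower in both siEsrrb libraries, at −0.66 (SE 0.13), and Lefty1, an inhibitor of Nodal, was higher in both, at 1.11 (SE 0.15). Utf1 lay at 0.13 (SE 0.25). Of 4 known SoxC targets, 2 were tested, with Stmn2 at −0.53 (SE 0.14) and Tead2 at 0.26 (SE 0.09), which was 0.18 without siCtrl replicate 1. None of these genes passed the adjusted test.

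Marker lists of cell states were read beside the Sox values, with the same shares of all genes (21.6% higher, 22.0% lower) as background. In the lists with 3 or 4 genes tested, counts of 1 or 2 in a direction say little against these shares. Of 15 naive pluripotency genes, 14 were tested, 13 were lower in both siEsrrb libraries and 1 overlapped, with a median of −0.81 and summed scaled RPKM of 42.95 and 49.2 in siEsrrb against 78.5 and 74.03 in siCtrl. Zfp42 had −0.85 (SE 0.15), and Nanog, a core factor of naive cells, −0.47 (SE 0.16), or −0.31 without siEsrrb replicate 1. Of 10 formative and primed genes, 7 were tested, 5 higher, 1 lower and 1 overlapping, with a median of 0.39 and sums of 23.5 and 14.4 in siEsrrb against 11.9 and 8.59 in siCtrl. The DNA methyltransferase gene Dnmt3b had 1.11 (SE 0.35), or 0.71 without siEsrrb replicate 1, and Zic2 0.79 (SE 0.21). Of 12 neuroectoderm genes, 3 were tested, 1 higher, 1 lower and 1 overlapping, with sums of 7.65 and 7.31 in siEsrrb against 5.79 and 5.02 in siCtrl, and Neurog2 at 0. Nes, the progenitor filament nestin, had 0.87 (SE 0.11) and Ncam1, a neural adhesion molecule, −0.68 (SE 0.13). Over the settings on RPKM, Ncam1 lay between −1.11 and −0.46. Ncam1 had 0.249 and 0.440 RPKM in siEsrrb against 0.898 and 0.821 in siCtrl. It passed the minimum of 0.5 RPKM only through siCtrl, so its count as lower carries no weight. Other list genes low in 1 group can have passed in the same way. Of 12 primitive endoderm genes, 4 were tested (1 higher, 2 lower, 1 overlapping), with sums of 7.87 and 7.80 in siEsrrb against 10.9 and 9.60 in siCtrl. Of 8 trophectoderm genes, 4 were tested (0 higher, 1 lower, 3 overlapping), with sums of 18.1 and 11.7 in siEsrrb against 12.9 and 9.35 in siCtrl. Of 10 fibroblast genes, 3 were tested (2 higher, 0 lower, 1 overlapping), with sums of 13.3 and 14.9 in siEsrrb against 11.8 and 14.0 in siCtrl, and Lum at 0. Mesendoderm genes had 0 of 8 tested, with summed levels of 0.28 to 0.31 scaled RPKM in siEsrrb and 0.33 to 0.45 in siCtrl. Their part in the Sox values was not tested.

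Genes with a profile most like Sox2 and Sox21 over the 4 libraries were found among 6972 genes with a mean of at least 1 RPKM, by the distance between centred log2 values. For Sox2 these were Raly (0.0071), Neat1 (0.0088) and Bud23 (0.0092). For Sox21 they were H2-M5 (0.184), Klf4 (0.195) and Tfcp2l1 (0.206), whose log2 fold changes were −1.21, −1.45 and −1.21. Genes picked by likeness over these same 4 libraries have fold changes near that of the Sox gene by choice. Shared regulation was not tested.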

How the data were processed

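The authors deposited RPKM per RefSeq transcript for each library, and per the submitters' processing notes used CASAVA 1.4, TopHat2 and the mouse build mm9, with Bowtie 1.1.1 and Bowtie2 named besides for replicate 1. The labels' protocols describe stranded libraries of chromatin RNA after depletion of ribosomal RNA. The counting program, its use of strand and of reads aligned to several places are not stated in any source used here. Each file held 34929 transcripts; 34631 matched 24260 symbols of RefSeq (GRCm38.p6, used for names and order of genes), and 298 did not.

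The transcript with the most reads stood for each symbol. Whole reads were recovered from the RPKM of 31770 of 31771 transcripts above 0, within 0.0002 of a read, and served for depths, intervals and an alternative test. For 73.4% of 15776 genes with a single transcript the length behind them lay within 1% of the annotated span, introns included. RPKM were multiplied by a median-of-ratios factor per library (1.09 and 0.948 in siEsrrb, 1.05 and 0.925 in siCtrl). Then log2(scaled RPKM + 0.5) was fitted with limma 3.58.1 in R 4.3.3 (trend; group as the only term) for the 9653 genes averaging at least 0.5 RPKM, with two-sided Benjamini-Hochberg adjusted p-values over all of them. The pseudocount understates the change of low genes. Intervals on ratios of reads are exact binomial, with depths and scaling factors taken as fixed. Other pseudocounts, minimums, scalings, voom and leaving out each library were tried.

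Groups and replicate numbers came from the titles. The members, lists and tests were chosen with earlier results of these data known. Genes named are the members, Esrrb, up to 4 genes with the highest mean per list, neighbours and overlapping genes, and the 3 genes closest in profile to Sox2 and Sox21. The table of the whole series repeats replicate 1 and was not tested.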

Additional observations from a re-analysis of the deposited data

How the results depend on the processing

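Of 111 log2 fold changes of the Sox genes under other settings, 100 kept their direction and side of the threshold, 6 passed it and 5 changed direction. Keeping the side of the threshold says little, since 0 genes passed it in the main fit. All 6 passes came from voom with the replicate block. All direction changes came from leaving out 1 library, in genes whose groups overlapped, and the cause was not tested: Sox2 lay between −0.182 and 0.0279, Sox13 between −0.0607 and 0.221 and Sox15 between −0.0444 and 0.276. Of 317 values of 25 other named genes (Esrrb, genes of the lists, neighbours and genes alike in profile), 290 were unchanged in this sense, 18 passed the threshold (18 genes, in voom with the replicate block) and 9 changed direction on leaving out 1 library: Tgds (−0.239 to 0.00845), Abcc4 (−0.0383 to 0.00477), Utf1 (−0.179 to 0.435), Raly (−0.181 to 0.0203), Neat1 (−0.192 to 0.0253) and Bud23 (−0.183 to 0.0368). In all settings run, Sox21 lay between −1.82 and −1.04, Sox3 between 0.32 and 1.78, Sox1 between 0.26 and 0.80, Sox4 between 0.56 and 0.74, Sox11 between 0.56 and 1.07 and Sox12 between 0.26 and 0.69.

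The labels state no pairing by replicate number, and deviations of same-numbered libraries correlated at 0.38 over 9653 genes. The replicate block on RPKM passed 0 genes. Voom on recovered reads with the replicate block passed 2568 of 9653 genes (26.6%), 5 of the Sox genes among them: Sox1, Sox4, Sox11, Sox12 and Sox21. The Sox genes were listed with results of this contrast known, so nothing is read from these passes. With no minimum as well, Sox3 lay just under the threshold (adjusted p 0.0492), against 0.363 in voom with no minimum and no block. The share of all genes called in that block fit is not given here, so nothing is read from it. Without the block, voom passed 0 genes.

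Leaving out 1 library passed 0 to 11 genes, 2 without siCtrl replicate 1 and 11 without siEsrrb replicate 2, and 0 Sox genes. The lone library is then assumed to vary like the other group. Genes whose groups did not overlap numbered 4214, but 8379 with no minimum, 1638 at a mean of at least 2 RPKM, and 6361 to 7422 on leaving out 1 library, where fewer libraries need to be apart. At that higher minimum 4 Sox genes were fitted. No other transcript of a Sox gene could be tried, since each symbol has 1. Sox3, with 4 and 13 reads in siCtrl, is limited most by depth.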
